A study of Rattus norvegicus with 12 samples.

Results

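The levels of 9 genes of macrophage activation and tissue repair were followed in the rat cerebral cortex after embolic stroke, namely Arg1, Mrc1, Msr1, Cd14, Clec7a, Trem1, Gpnmb, Lgals3 and Nos2. They were taken by symbol from the deposited count table, in which 9 of 17268 genes matched. The set was selected on the expression values of these same 12 libraries, with all group differences used here already known, so the levels and differences below describe these libraries and test nothing about the choice.

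RNA from the cerebral cortex of adult male Sprague Dawley rats was sequenced in 12 libraries, 3 in each of 4 groups. Sham rats had the carotid artery dissected but no embolus injected. Model rats received a blood clot in the middle cerebral artery and neither treatment. The rt-PA rats received the same clot and then rt-PA, the recombinant plasminogen activator that dissolves clots, by tail vein at 6 h. The rt-PA+Acu rats had the clot, acupuncture at the Shuigou and Neiguan points at 2 h and rt-PA at 6 h. No group among these libraries had acupuncture without rt-PA, so acupuncture could be compared only in the presence of the drug. Nothing in the labels names a batch, and the labels number the libraries without naming animals, so p-values measure the spread between these libraries. Total counts ranged from 11678450 to 13616935 per library, and 3 counts stood for 0.208 to 0.262 CPM, which is the count scaled to the library size after TMM correction. Model replicate 3 stood apart from the other clot libraries at Rpl39, a ribosomal protein gene, with 142 counts, where Sham libraries had 105 to 151 and the remaining 8 had 488 to 990, and values without it are given where they matter.

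Macrophages and the brain's own microglia take up debris and sense injury through surface receptors, then switch on enzymes and secreted or lysosomal proteins that shape inflammation and repair. In textbook schemes Nos2 marks classical activation and Arg1 and Mrc1 mark alternative activation, although cells in injured brain often express mixtures of both. After stroke, blood monocytes and neutrophils enter the tissue and add their transcripts to those of resident microglia, which normally express little of most of these genes.

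Promoter sequence was available for Mrc1, Cd14, Clec7a, Trem1 and Gpnmb in the RefSeq table of build GRCr8, which is not the build of the counts. The windows of Mrc1 and Gpnmb are shown because they lie wholly before the annotated gene and contain motifs of factors known from myeloid cells. Each shows the 250 bases before the start on the plus strand, 5′ to 3′, with motif matches in capitals.
Mrc1, chr17:82157475-82157724: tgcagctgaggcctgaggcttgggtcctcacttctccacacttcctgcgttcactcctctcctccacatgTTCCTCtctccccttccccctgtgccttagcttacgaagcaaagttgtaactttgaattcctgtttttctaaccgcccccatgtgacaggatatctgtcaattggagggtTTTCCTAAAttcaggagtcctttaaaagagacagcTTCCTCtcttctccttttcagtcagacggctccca
Gpnmb, chr4:79340878-79341127: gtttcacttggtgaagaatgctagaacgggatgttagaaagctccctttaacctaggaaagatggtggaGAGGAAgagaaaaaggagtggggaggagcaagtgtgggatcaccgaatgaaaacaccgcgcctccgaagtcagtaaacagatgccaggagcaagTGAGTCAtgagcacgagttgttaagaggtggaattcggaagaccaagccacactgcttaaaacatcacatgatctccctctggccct
The capitals in Mrc1 mark 2 matches to the PU.1 core GAGGAA on the minus strand and a pair of overlapping matches to the C/EBP motif TTNNGNAA, also on the minus strand. Those in Gpnmb mark 1 match to GAGGAA and 1 to the AP-1 motif TGANTCA, located 87 to 81 bases before the start. Searched on both strands, GAGGAA was found in 23.3%, TTNNGNAA in 37.2% and TGANTCA in 6.34% of all 33469 promoters in the table. Neither window held the E-box CACGTG, the motif ACGTG within it or an NF-kappaB motif, found in 5.59%, 16.6% and 1.3% of promoters. Only 1 letter pattern was searched for each motif, so other sites of the same factors were not looked for in either window. A match is a description of letters and no evidence of binding.

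The 9 genes formed distinct patterns over the 4 groups. Cd14, Msr1, Clec7a, Trem1, Gpnmb and Lgals3 were already high in Model, whereas Arg1 and Mrc1 were near Sham levels in Model and had each rt-PA library above all others. Nos2 was uneven in Model and rt-PA. For each of the 9, every library of rt-PA+Acu lay below every rt-PA library. In bulk tissue, fewer cells of a type and less RNA per cell cannot be told apart.

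**Figure D1:**
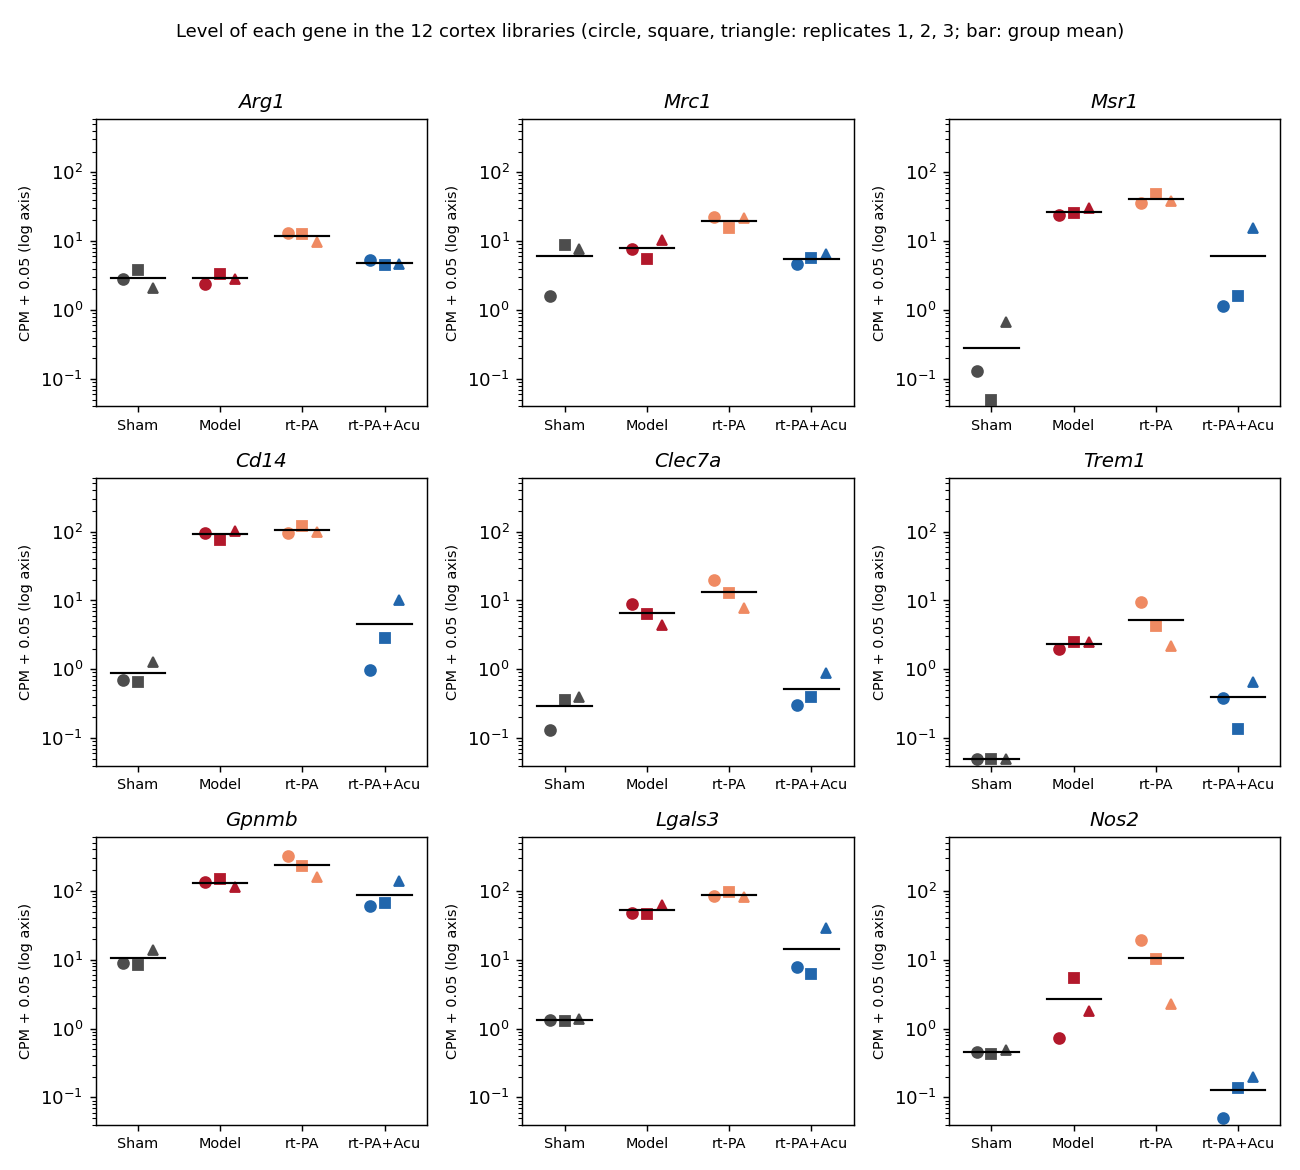
Level of the 9 genes in each of the 12 libraries, as CPM plus 0.05 on a log axis, by group, with circles, squares and triangles for replicates 1, 2 and 3 and a bar at the group mean. For all 9 genes the 3 rt-PA+Acu libraries sit below the 3 rt-PA libraries, and Trem1 is at 0 in the 3 Sham libraries.

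Differences between groups were tested with edgeR's quasi-likelihood test on the counts of the 6 libraries compared, with Benjamini-Hochberg adjustment over all genes tested, and a gene was called at an adjusted p under 0.05 with an absolute log2 fold change over 1. In Model against Sham, 6 of the 8 genes that could be tested were called higher and 0 lower, where 9.43% of all genes tested were called higher and 12% lower. In rt-PA against Model, 0 of 9 were called, where 0% of all genes were called, 241 genes (1.86%) reached an unadjusted p under 0.05 with that fold change, and DESeq2 called 73. In rt-PA+Acu against rt-PA, 9 of 9 were called lower, where 8.16% of all genes were called lower and 7.17% higher. In rt-PA+Acu against Model, 4 of 8 were called lower, where 6.62% of all genes were. In rt-PA+Acu against Sham, 2 of 6 were called higher, where 0.916% of all genes were and 1.14% were lower. In rt-PA against Sham, 9 of 9 were called higher, where 11% of all genes were. These comparisons share groups, and the genes were chosen knowing them, so nothing is read from the counts.

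**Figure D2:**
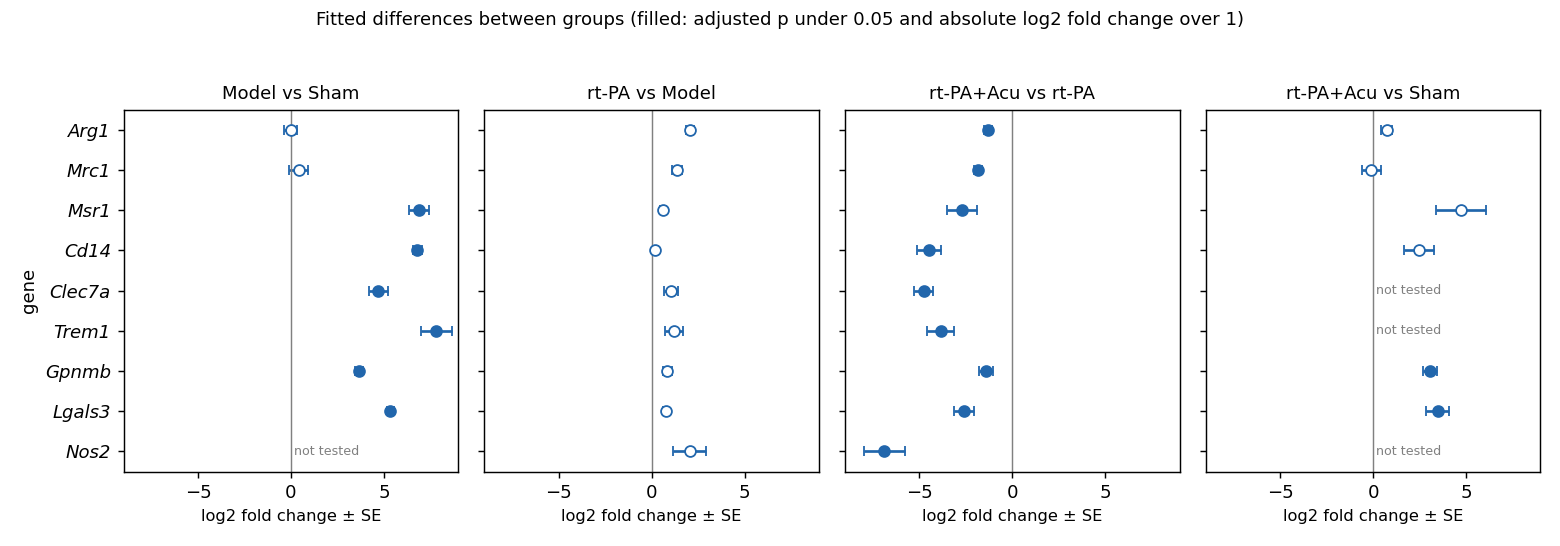
Fitted log2 fold change with its SE for the 9 genes in 4 comparisons, with filled points for genes that were called and open points for genes tested and not called. The rt-PA+Acu against rt-PA panel has all 9 points filled and below 0, from -1.3 for Arg1 to -6.88 for Nos2, and the rt-PA against Model panel has none filled.

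Cd14, the co-receptor that hands lipopolysaccharide and damage-derived ligands to Toll-like receptors, was high in Model and rt-PA and nearer to Sham in rt-PA+Acu. Its level was 0.647, 0.612 and 1.22 CPM in the Sham libraries, 96.8, 75.9 and 101 CPM in Model, 95.2, 119 and 98.8 CPM in rt-PA, and 0.926, 2.79 and 9.95 CPM in rt-PA+Acu. Model and rt-PA overlapped, rt-PA+Acu lay below both, and its replicate 1 fell within the Sham range. In Model against Sham, Cd14 rose by 6.8 on the log2 scale (SE 0.23, adjusted p = 3.41e-06). In rt-PA against Model the log2 difference was 0.2 (SE 0.14, adjusted p = 0.692). In rt-PA+Acu against rt-PA, Cd14 fell by 4.49 on the log2 scale (SE 0.64, adjusted p = 0.00316), which left the group mean at 4.36% of the rt-PA mean. Against Sham, rt-PA+Acu did not pass the test (log2 difference 2.48, SE 0.82, adjusted p = 0.123), but DESeq2 called it (adjusted p = 0.02), as did the fit without rt-PA+Acu replicate 1 (adjusted p = 0.0333).

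Trem1, a receptor of neutrophils and monocytes that amplifies inflammatory signals through the adaptor Tyrobp, had 0 counts in all 3 Sham libraries. It had 25, 29 and 30 counts in Model, 134, 59 and 29 counts in rt-PA, and 4, 1 and 8 counts in rt-PA+Acu. Against a floor of 3 counts per library, Trem1 was at least 9.3-fold higher in Model than in Sham and at least 21.7-fold higher in rt-PA. Within rt-PA the highest library was 4.35 times the lowest, and the lowest overlapped Model, so rt-PA against Model gave a log2 difference of 1.2 (SE 0.51, adjusted p = 0.502). The rt-PA+Acu libraries lay below every Model and rt-PA library, and Trem1 fell by 3.86 on the log2 scale from rt-PA (SE 0.74, adjusted p = 0.00806). From Model it fell by 2.67 (SE 0.56, adjusted p = 0.0098). With 1 to 8 counts per library, the level in rt-PA+Acu was close to the floor.

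Clec7a encodes dectin-1, the lectin receptor for beta-glucans that signals through Syk and is a known marker of microglia around damage. Its level was 0.0808, 0.306 and 0.349 CPM in Sham, 8.93, 6.26 and 4.38 CPM in Model, 19.8, 12.7 and 7.73 CPM in rt-PA, and 0.253, 0.349 and 0.823 CPM in rt-PA+Acu. Model and rt-PA overlapped at a single library each, and rt-PA+Acu overlapped Sham. Clec7a rose by 4.7 on the log2 scale in Model against Sham (SE 0.51, adjusted p = 0.00017) and fell by 4.76 in rt-PA+Acu against rt-PA (SE 0.52, adjusted p = 0.00149). Its rt-PA against Model difference of 1.04 did not pass the test (SE 0.39, adjusted p = 0.437). Too few counts were present to test rt-PA+Acu against Sham.

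Msr1, the class A scavenger receptor that takes up modified lipoproteins and debris, kept a residue in 1 rt-PA+Acu library. It was at 0.0808, 0 and 0.611 CPM in Sham, 23.9, 26 and 30.5 CPM in Model, 35.6, 47.8 and 38 CPM in rt-PA, and 1.09, 1.57 and 15.4 CPM in rt-PA+Acu. The groups did not overlap, and rt-PA+Acu replicate 3 was 14.1 times replicate 1. Msr1 rose by 6.88 on the log2 scale in Model against Sham (SE 0.53, adjusted p = 3.79e-05). It fell by 2.72 in rt-PA+Acu against rt-PA (SE 0.82, adjusted p = 0.038). That call was lost in 5 of the 6 fits that left out 1 library, with an adjusted p of up to 0.0996, while leaving out rt-PA+Acu replicate 3 gave a difference of -4.91. Against Model the difference was -2.13 (SE 0.81, adjusted p = 0.0775), and without that replicate it was -4.32 (adjusted p = 0.000246). Against Sham, all 3 rt-PA+Acu libraries were higher, with a difference of 4.73 that did not pass the test (SE 1.35, adjusted p = 0.0857). Over 12 alternative fits that difference ran from 2.54 to 6.95, and 3 of them called Msr1 higher, with an adjusted p down to 0.0194.

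Mrc1, the mannose receptor CD206 of border-associated and alternatively activated macrophages, did not separate Model from Sham. It was at 1.54, 8.8 and 7.6 CPM in Sham, 7.63, 5.5 and 10.5 CPM in Model, 22.6, 15.5 and 21.6 CPM in rt-PA, and 4.63, 5.58 and 6.44 CPM in rt-PA+Acu. The 3 rt-PA libraries were the highest of the 12, and the other groups overlapped. The log2 difference was 0.41 in Model against Sham (SE 0.53, adjusted p = 0.542) and 1.34 in rt-PA against Model (SE 0.27, adjusted p = 0.282), and DESeq2 called the latter (adjusted p = 0.0013). Mrc1 fell by 1.84 in rt-PA+Acu against rt-PA (SE 0.22, adjusted p = 0.00187), to 27.9% of the rt-PA mean, and rt-PA+Acu against Sham gave -0.1 (SE 0.52, adjusted p = 0.924). Without Sham replicate 1, the lowest library, the sign of the Model against Sham difference turned to -0.06.

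Arg1, the arginase that turns arginine into ornithine and urea, likewise did not separate Model from Sham. Its level was 2.75, 3.83 and 2.01 CPM in Sham, 2.37, 3.3 and 2.81 CPM in Model, 13, 12.6 and 9.8 CPM in rt-PA, and 5.22, 4.44 and 4.64 CPM in rt-PA+Acu. Every rt-PA library exceeded every other library, and all 3 rt-PA+Acu libraries exceeded all Sham and Model libraries. In Model against Sham the log2 difference was -0.02 (SE 0.33, adjusted p = 0.971), and its sign turned in 4 alternative fits, with values up to 0.24. In rt-PA against Model it was 2.06 (SE 0.23), with an adjusted p of 0.0847, and Arg1 ranked number 4 of 12941 genes by p. DESeq2 called it (adjusted p = 1.76e-09), as did 1 fit over all 12 libraries (adjusted p = 0.02). Arg1 fell by 1.3 in rt-PA+Acu against rt-PA (SE 0.2, adjusted p = 0.00396), to 40.5% of the rt-PA mean and 169% of the Model mean. The differences of 0.75 from Model (SE 0.27, adjusted p = 0.0648) and 0.73 from Sham (SE 0.3, adjusted p = 0.187) did not pass the test.

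Nos2, the inducible nitric oxide synthase that competes with arginase for arginine, was the most uneven of the 9 within Model and within rt-PA, where the highest library was 7.88 and 8.85 times the lowest. It had 5 counts in each of the 3 Sham libraries. Model had 9, 64 and 21 counts, rt-PA had 282, 143 and 30, and rt-PA+Acu had 0, 1 and 2. Model spanned 0.687 to 5.41 CPM and rt-PA 2.21 to 19.5 CPM, so these groups overlapped, and the rt-PA against Model difference of 2.04 did not pass the test (SE 0.87, adjusted p = 0.501). Every Model library lay above every Sham library, but counts were too low for Nos2 to be tested there. All 3 rt-PA+Acu libraries lay below every Sham library. From summed counts, rt-PA exceeded rt-PA+Acu 133 times (95% counting interval 45.1 to 646), Model exceeded it 31.1 times (10.3 to 153) and Sham exceeded it 4.98 times (1.41 to 26.8), and these intervals cover counting error only. In the fit of rt-PA+Acu against rt-PA, Nos2 fell by 6.88 on the log2 scale (SE 1.1, adjusted p = 0.00455), a value that depends on the prior count.

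Gpnmb, a lysosomal and surface glycoprotein of phagocytes, had a raised level in rt-PA+Acu as well. It was at 8.97, 8.42 and 14 CPM in Sham, 132, 147 and 114 CPM in Model, 317, 227 and 156 CPM in rt-PA, and 59.8, 65.9 and 137 CPM in rt-PA+Acu. Every clot library lay above every Sham library, and rt-PA+Acu replicate 3 lay within the Model range. Gpnmb rose by 3.66 in Model against Sham (SE 0.2, adjusted p = 1.07e-05) and by 3.07 in rt-PA+Acu against Sham (SE 0.36, adjusted p = 0.00494). It fell by 1.41 in rt-PA+Acu against rt-PA (SE 0.37, adjusted p = 0.023), and the difference lay between -1.88 and -1.13 in all 13 alternative fits. The call was lost without rt-PA replicate 1 (-1.13, adjusted p = 0.0743), rt-PA+Acu replicate 1 (-1.2, adjusted p = 0.0693) or rt-PA+Acu replicate 2 (-1.24, adjusted p = 0.0832). The rt-PA+Acu against Model difference was -0.58 (SE 0.3, adjusted p = 0.17), and without rt-PA+Acu replicate 3 Gpnmb was called lower (-1.06, adjusted p = 0.00201).

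Lgals3 encodes galectin-3, a sugar-binding protein that phagocytes make around injury and at damaged lysosomes. It was at 1.29, 1.22 and 1.31 CPM in Sham, 48.2, 45.9 and 61.4 CPM in Model, 84.4, 95.3 and 81.5 CPM in rt-PA, and 7.74, 6.1 and 28.4 CPM in rt-PA+Acu. None of the 4 groups overlapped, and their order from low to high was Sham, rt-PA+Acu, Model and rt-PA. Lgals3 rose by 5.34 in Model against Sham (SE 0.18, adjusted p = 3.41e-06), while the step from Model to rt-PA of 0.75 did not pass the test (SE 0.13, adjusted p = 0.23). It fell by 2.61 in rt-PA+Acu against rt-PA (SE 0.53, adjusted p = 0.00954) and by 1.87 in rt-PA+Acu against Model (SE 0.52, adjusted p = 0.028), and was higher by 3.47 in rt-PA+Acu against Sham (SE 0.63, adjusted p = 0.0251). The call against Model was lost in 5 of the 6 fits without 1 library, with an adjusted p of up to 0.0782, and remained only without rt-PA+Acu replicate 3. The call against Sham was lost without any 1 Sham library, with an adjusted p of up to 0.125.

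Across the 9 genes, 5 had rt-PA libraries wholly above the Model libraries, namely Arg1, Mrc1, Msr1, Gpnmb and Lgals3, where 7.84% of all genes tested had rt-PA wholly above Model. In all 9 the rt-PA+Acu libraries lay wholly below the rt-PA libraries, where 26.5% of all genes did so. The median log2 fold change of the 9 was 1.04 in rt-PA against Model and -2.72 in rt-PA+Acu against rt-PA, against 0 for all genes in both. Model replicate 3, the library apart at Rpl39, was above every Sham library for the 6 genes called in Model against Sham, and 6 were called without it too.

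**Figure D3:**
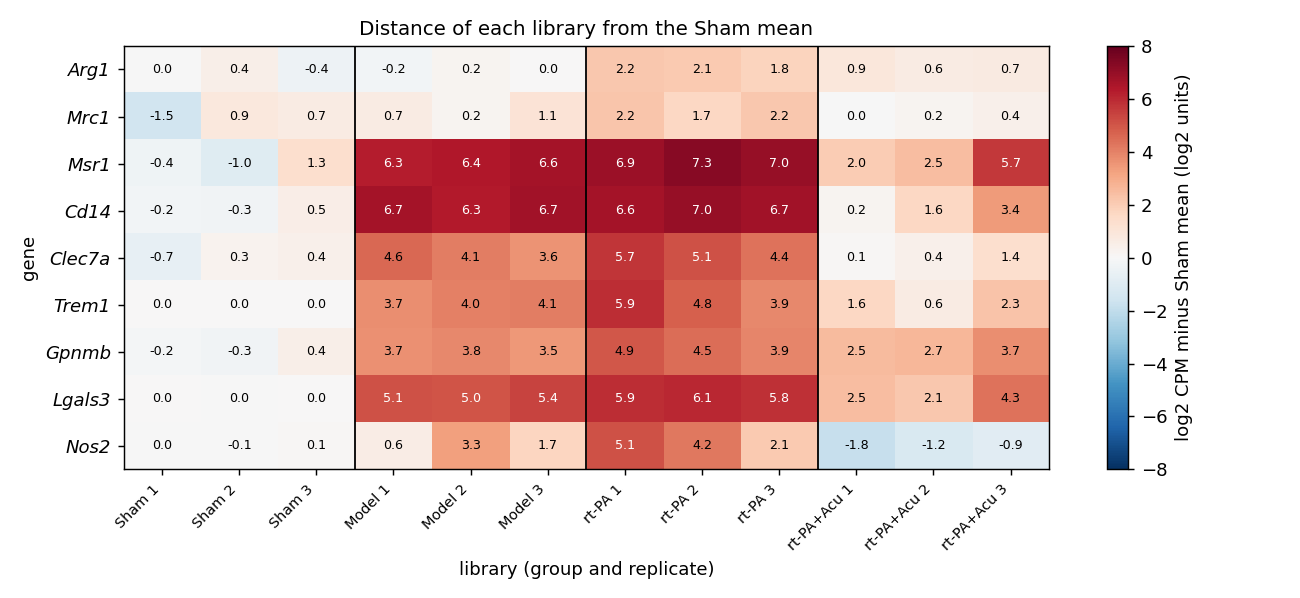
Difference of each library from the Sham mean in log2 CPM (prior count of 2), for the 9 genes and 12 libraries, with red above and blue below. In rt-PA+Acu, replicate 3 is the highest for 8 of the 9 genes, Arg1 being the exception, and Nos2 is below the Sham mean in all 3 libraries.

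The rt-PA+Acu libraries were not alike. Replicate 3 was the highest of its group for 8 of 9 genes and the lowest for 0, and its Cd14 level was 10.8 times and its Lgals3 level 4.66 times that of the lowest library. This library also had the lowest sum of the 10 cortical neuron markers in its group, 5210 CPM against 7680 and 8130 CPM, while Model spanned 5200 to 5490 CPM and Sham 7560 to 8270 CPM. In rt-PA, replicate 1 was the highest for 6 genes and replicate 3 the lowest for 6. The part of these libraries' makeup in the results was not tested.

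Genes around the 9 were described through lists of their partners, whose choice also knew earlier results. Among 20 scavenger and lectin receptors in the table, 14 were tested in Model against Sham, where 3 were called higher and 1 lower, and 14 in rt-PA+Acu against rt-PA, where 0 were called higher and 7 lower. Clec5a, a myeloid lectin that also signals through Tyrobp, rose by 4.06 on the log2 scale in Model against Sham and fell by 2.64 in rt-PA+Acu against rt-PA. Cd163, the haemoglobin scavenger receptor, resembled Mrc1, with means of 2.75, 4.77, 16.2 and 2.76 CPM in the order of groups used above, and fell by 2.56 in rt-PA+Acu against rt-PA (SE 0.36, adjusted p = 0.00298). Olr1, the receptor for oxidised lipoproteins, rose by 2.78 and fell by 2.35, and the lysosomal protein gene Cd68 rose by 2.66 and fell by 2.28. Mrc2, the other mannose receptor family member listed, gave 0.04 in rt-PA+Acu against rt-PA (SE 0.34, adjusted p = 0.941). Lgals1, a galectin like Lgals3, gave 0.41 in Model against Sham (adjusted p = 0.243) and fell by 1.39 in rt-PA+Acu against rt-PA (adjusted p = 0.0359).

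In each pair of values below, the first is the Model against Sham difference and the second that of rt-PA+Acu against rt-PA, both log2. The signalling list of lipopolysaccharide, dectin-1 and TREM genes gave 3 called higher and 0 lower of 15 tested in Model against Sham, and 0 higher and 6 lower of 15 in rt-PA+Acu against rt-PA. Myd88, the adaptor of Toll-like receptors, rose by 2.41 and fell by 2.1 on the log2 scale, and Syk, the kinase below dectin-1, rose by 1.2 and fell by 1.28. Tlr4, the receptor that works with Cd14, gave 0.63 in Model against Sham (SE 0.27, adjusted p = 0.0806) and fell by 1.2 in rt-PA+Acu against rt-PA (SE 0.3, adjusted p = 0.021). Its co-receptor Ly96 gave -1.1 in that comparison (SE 0.38, adjusted p = 0.0565). Tyrobp, the adaptor of Trem1, gave 0.98 (SE 0.26, adjusted p = 0.0119), short of the fold threshold, and fell by 1.23 (SE 0.26, adjusted p = 0.011). Trem2, the receptor of microglia that shares that adaptor, did not pass either test, at -0.78 (adjusted p = 0.0536) and 0.39 (adjusted p = 0.188). Card9 had 0 counts in all libraries, and Ticam1 was not analysed here.

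Enzymes that use arginine or feed nitric oxide synthesis moved in part. Of 17 in the table, 5 were called higher and 1 lower of 17 tested in Model against Sham, and 1 higher and 5 lower of 16 tested in rt-PA+Acu against rt-PA. Gch1, which makes the cofactor of nitric oxide synthases, rose by 2.44 (SE 0.24, adjusted p = 0.000121) and fell by 3.26 (SE 0.41, adjusted p = 0.00221). Odc1, which uses the ornithine made by arginase for polyamines, rose by 1.77 and fell by 1.17. Nos3, the endothelial synthase, rose by 1.26 and fell by 2.2, whereas the neuronal Nos1 gave -0.85 (adjusted p = 0.0228) and rose by 1.16 (adjusted p = 0.0456). In Model, Nos3 was at 20.2, 23.7 and 62.1 CPM, replicate 3 being the highest, and Sham spanned 11.9 to 17.8 CPM. Nos1 was at 18, 53.5 and 47.8 CPM in rt-PA+Acu, where replicate 1 lay within the rt-PA range of 14.8 to 19.6 CPM. Arg2, the mitochondrial arginase, gave -0.45 (adjusted p = 0.207) and 0.55 (adjusted p = 0.103). The recycling enzymes Ass1 and Asl gave 0.13 and 0.33 in Model against Sham. In rt-PA+Acu against rt-PA, Ass1 gave -0.39 (adjusted p = 0.301), and Asl gave -0.91 (SE 0.17, adjusted p = 0.00702), short of the fold threshold. Neither Ass1 nor Asl was called in either comparison.

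Lists named for classical and alternative activation both held genes called in the same directions as the receptors. In the classical list, 6 were called higher and 1 lower of 10 tested in Model against Sham, and 0 higher and 7 lower of 11 in rt-PA+Acu against rt-PA. Il1b rose by 4.4 and fell by 5.21, and Il6 rose by 3.57 and fell by 4.35, both being cytokines of early inflammation. In the alternative list, 7 were called higher and 1 lower of 13, and 0 higher and 10 lower of 14. The members of that list that moved most were Il1r2, a decoy receptor for interleukin-1, at 5.66 and -5.21, and Il1rn, its receptor antagonist, at 4.5 and -4.67, both of which are also known to be induced by inflammation. Median log2 fold changes in rt-PA+Acu against rt-PA were -2.05 for the classical and -1.81 for the alternative list, against 0 for all genes.

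The list of phagocyte lysosome, lipid and repair genes gave 7 called higher and 3 lower of 20 tested in Model against Sham, and 0 higher and 9 lower of 21 in rt-PA+Acu against rt-PA. Spp1, the secreted osteopontin, was at 0.0808, 1.07 and 2.36 CPM in Sham, 308, 328 and 47.3 CPM in Model, 946, 1170 and 525 CPM in rt-PA, and 12.4, 16.7 and 174 CPM in rt-PA+Acu. It rose by 7.64 and fell by 3.69, and 1 library each, replicate 3, stood apart in Model and in rt-PA+Acu. Hmox1, which degrades haem, rose by 5.41 and fell by 5.16. Itgax rose by 6.72 and fell by 3.27. Mitf, a factor known to act at Gpnmb, gave -0.13 and -0.27 and passed neither test, while its relative Tfec, at 0 in all 3 Sham libraries, fell by 3.37 in rt-PA+Acu against rt-PA (adjusted p = 0.00624). In rt-PA+Acu against Sham, 4 genes of this list were called higher and 3 lower, with Spp1 at 5.89 (SE 1.3, adjusted p = 0.0423), whose rt-PA+Acu mean was set mainly by replicate 3, and Itgax at 3.82 (SE 0.88, adjusted p = 0.0483). The remaining 2 that were higher were Ctsk and Cd63 and the 3 that were lower were Apoe, Lpl and Mertk, all 5 named here after their values were seen. None of the 6 lists had a gene called in rt-PA against Model by edgeR.

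**Figure D4:**
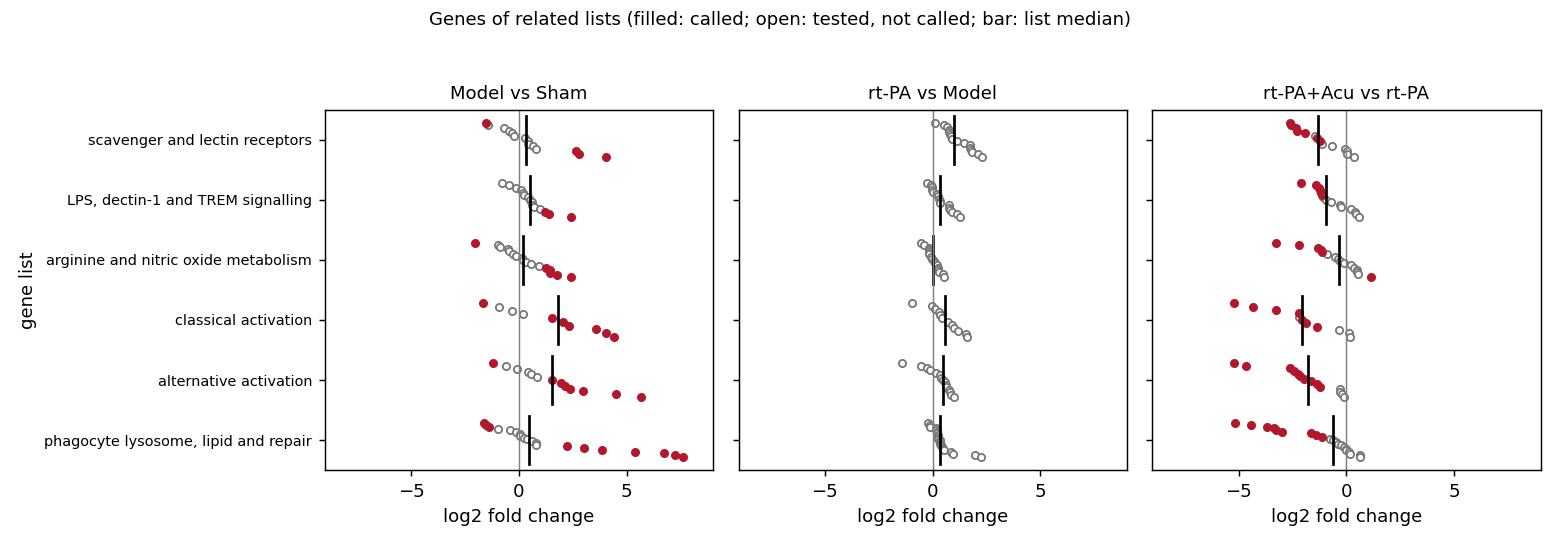
Log2 fold changes of the genes of 6 related lists in 3 comparisons, with filled points for genes called, open points for genes tested and not called, and a bar at the list median. The rt-PA against Model panel has no filled point, and in rt-PA+Acu against rt-PA the medians run from -0.34 for the arginine and nitric oxide list to -2.05 for the classical list.

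Some lists of cell type markers moved with these genes and others did not, and their part in the results was not tested. In Model the neutrophil, border-associated macrophage and pan-myeloid sums overlapped Sham, and the homeostatic microglia sum lay below Sham. Single markers differed from these sums. In Model against Sham, 2 of 5 neutrophil markers tested were called higher and 0 lower. Of 10 pan-myeloid markers, 3 were called higher and 1 lower, and of 6 border-associated macrophage markers 0 were called. Among all genes tested, 9.43% were called higher and 12% lower. The 10 neutrophil markers summed to 7.96 to 12.6 CPM in Sham, 7.4 to 18.9 in Model, 16.9 to 84.2 in rt-PA and 6.45 to 6.74 in rt-PA+Acu, with the granule genes Mpo, Elane and Ltf at 0 throughout, and 4 of the 6 tested were called lower in rt-PA+Acu against rt-PA. Within rt-PA the neutrophil sum ran 84.2, 36.5 and 16.9 CPM in replicates 1, 2 and 3, the order of Clec7a, Trem1, Gpnmb, Nos2 and Arg1 but not of Cd14, Msr1, Mrc1 or Lgals3. The 9 monocyte and infiltrating macrophage markers in the table summed to 257 to 337, 485 to 590, 688 to 1230 and 212 to 261 CPM, and the 8 border-associated macrophage markers to 16.5 to 32.8, 20.5 to 23, 37.4 to 79.4 and 19.5 to 35.3 CPM, with Cd163, Ms4a7 and others shared between lists. The monocyte sum rested mainly on Fn1, Vcan, Cd44 and Lyz2, with Sham means of 144, 93.3, 7.31 and 54.2 CPM. Their Model means were 98.9, 88.3, 245 and 97.5 CPM, whereas Ccr2, Plac8 and Ms4a7 had 1.37, 1.03 and 0.191 CPM there. Of the 7 monocyte and infiltrating macrophage markers tested, 2 were called higher and 0 lower in Model against Sham. In rt-PA+Acu against rt-PA, 4 of 7 were called lower and 0 higher. Ccr2, the receptor of entering monocytes, rose by 2.44 in Model against Sham and fell by 4.96 in rt-PA+Acu against rt-PA. It had 0 to 5 counts per library in Sham, 11 to 22 in Model and 0 to 7 in rt-PA+Acu. Fn1 gave -0.53 in Model against Sham (adjusted p = 0.0416), short of the fold threshold, and fell by 1.74 in rt-PA+Acu against rt-PA. The 10 pan-myeloid markers summed to 232 to 321, 254 to 341, 360 to 496 and 244 to 296 CPM, and 7 of them were called lower in rt-PA+Acu against rt-PA. The 9 homeostatic microglia markers in the table summed to 558 to 694, 397 to 456, 395 to 457 and 436 to 500 CPM, and of 8 tested, 4 were called lower in Model against Sham and 3 higher in rt-PA+Acu against rt-PA. Among them P2ry12, a purine receptor of resting microglia, fell by 3.64 in Model against Sham and rose by 3.06 in rt-PA+Acu against rt-PA. The 10 cortical neuron markers summed to 7560 to 8270, 5200 to 5490, 3970 to 5210 and 5210 to 8130 CPM, and 4 were called lower in Model against Sham and 4 higher in rt-PA+Acu against rt-PA. In Model, 7 lay wholly below Sham and 2 wholly above, where 31.6% and 32.1% of all genes did. Those 2 were Gad1 and Gad2, with means of 267 and 88.6 CPM in Sham and 484 and 164 CPM in Model. The 7 striatal neuron markers in the table summed to 214 to 883, 143 to 228, 95.2 to 153 and 148 to 270 CPM, and 6 were called lower in Model against Sham and 4 lower in rt-PA+Acu against Sham.

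**Figure D5:**
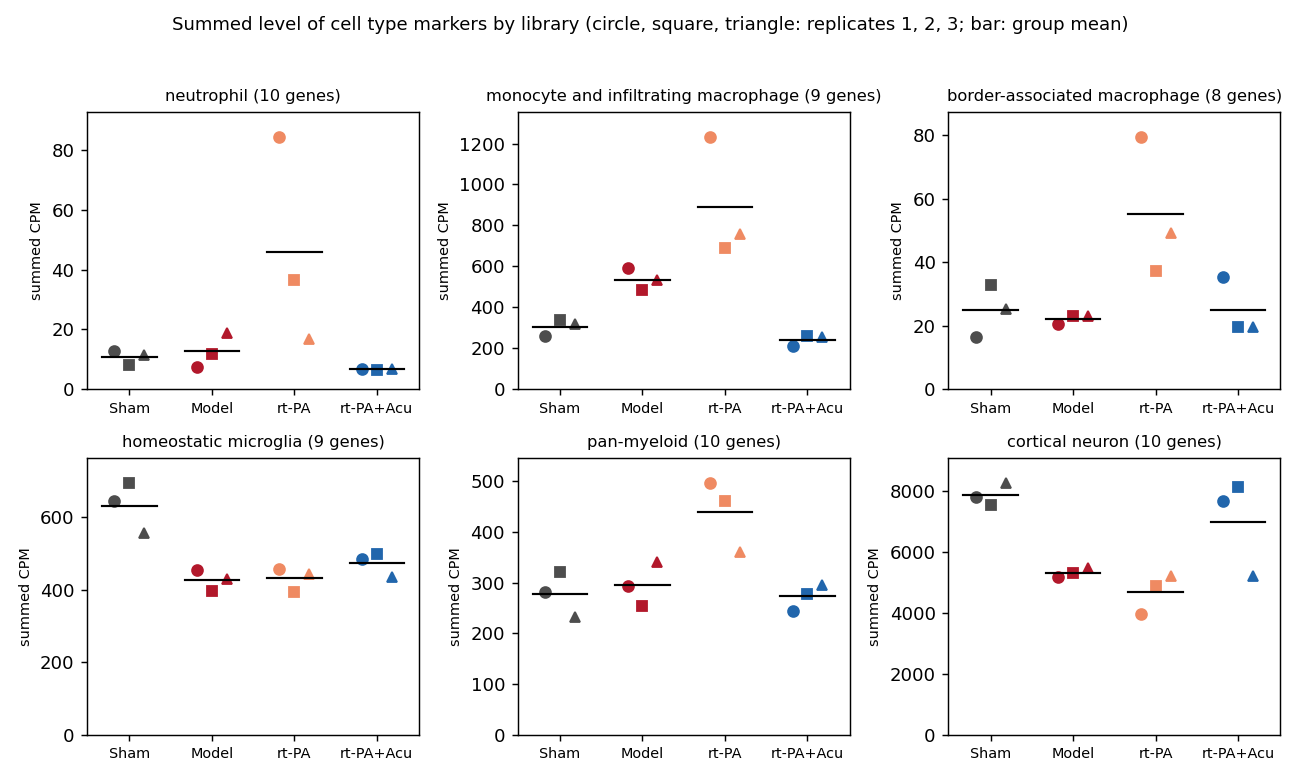
Summed CPM of 6 marker lists in each library, by group, on linear axes from 0, with circles, squares and triangles for replicates 1, 2 and 3 and a bar at the group mean. The neutrophil sum is highest in rt-PA replicate 1, at 84.2 CPM, and lies between 6.45 and 6.74 CPM in rt-PA+Acu.

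For each of the 9 genes, the 3 genes with the most similar course were found over the 12 libraries among 12744 genes with a mean of at least 1 CPM, by the mean absolute difference of centred log2 CPM, where a small value means a similar course. Arg1 was nearest to Ncf1 (0.36), Slc66a3 (0.38) and Csf1 (0.39), and Mrc1 to Col18a1 (0.4), Spi1 (0.4) and Lrrc32 (0.41), which had their highest means in rt-PA. Among the nearest to Cd14 were Cxcl1 (0.42) and Ptx3 (0.42), and Msr1 was nearest to Itgax (0.52), Ptx3 (0.62) and Sprr1a (0.63). Gpnmb was nearest to Glipr2 (0.25), Fgl2 (0.41) and Mcm5 (0.47), and Lgals3 to Cd44 (0.37), Mmp12 (0.42) and Tubb6 (0.48). Nos2 lay farther from its nearest genes, Selp (0.55), Cxcr2 (0.6) and Ngfr (0.65). Clec7a was nearest to Hk3 (0.38), Adamts9 (0.41) and Il1r2 (0.41), and Trem1 to Cxcl16 (0.34), Plin2 (0.36) and Flnc (0.41), but for both none of the 3 were among the nearest with a prior count of 0.5 in place of 2.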

How the data were processed

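In all, 12 rat cortex libraries were sequenced by the authors. The deposited values are raw counts per gene symbol, made by the authors with STAR 2.7.10a and Salmon 1.9.0 on build mRatBN7.2 with an Ensembl annotation whose release is not given in the sources used here. The submitters' processing notes also name featureCounts 2.0.1, and whether molecular identifiers were used in counting is not stated. The 12 libraries were grouped by their labels, with 3 per group.

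The statistics used edgeR 4.0.16 with limma 3.58.1, and DESeq2 1.42.0 as the alternative, under R 4.3.3, while matplotlib 3.10.9 under Python 3.11.15 drew the figures. For every comparison, the 6 libraries concerned were normalised by TMM, genes were filtered by filterByExpr, and edgeR's quasi-likelihood test was run. CPM levels used TMM factors from all 12 libraries together (0.9488 to 1.078). Its p-values were adjusted by Benjamini-Hochberg across all genes tested. A call needed an adjusted p below 0.05 together with an absolute log2 fold change above 1. Log2 CPM used a prior count of 2. Floors of 3 counts and counting intervals cover counting error only, since reads are not independent molecules. The 9 genes, the lists, the tests and the alternatives were chosen with earlier results of these data known. Named genes were all 9, at most 4 called genes per list with the largest change at a mean of at least 1 CPM, direct partners of the 9, and the 3 nearest genes of each, of which 1 is not reported here. Alternatives were DESeq2, RLE size factors, library size alone, 2 other count filters, 1 fit over 12 libraries, a replicate block, no fold threshold, and leaving out each library. The fit was checked on simulated counts in which 200 genes changed 4-fold. Replicate numbers did not pair the libraries. Promoters came from RefSeq, where 5 of 9 genes matched.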

Additional observations from a re-analysis of the deposited data

How the results depend on the processing

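The counts of the 9 genes called in each comparison were recomputed under each alternative. Requiring at least 10 counts in every library, which leaves fewer genes to test, gave 2 in Model against Sham, 4 in rt-PA against Sham and 2 in rt-PA+Acu against Model. In both comparisons with Sham, only Arg1, Mrc1, Gpnmb and Lgals3 met that filter. In rt-PA+Acu against Model, Clec7a, Trem1 and Nos2 did not meet it. Each gene called in the main fit and still tested in these comparisons kept its call. In rt-PA against Model, DESeq2 called 2 (Arg1 and Mrc1) and 1 fit over all 12 libraries called 1 (Arg1), in place of 0. Leaving out 1 library at a time gave 6 to 7 in Model against Sham, 0 in rt-PA against Model, 7 to 9 in rt-PA+Acu against rt-PA, 8 to 9 in rt-PA against Sham, 3 to 7 in rt-PA+Acu against Model (7 without rt-PA+Acu replicate 3) and 1 to 4 in rt-PA+Acu against Sham (1 without any 1 Sham library and 4 without rt-PA+Acu replicate 1). The shares of all genes called in these alternative fits are not given here, so nothing particular to the 9 genes is read from the counts. Among 620 refits of single genes, 581 kept their direction and side of the threshold, 18 lost the call, 12 gained it and 9 changed sign.

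The changes of sign concerned differences near 0 that passed no test. Arg1 in Model against Sham was 0.05 with library size alone, 0.01 with the replicate block and -0.22 to 0.24 when 1 library was left out. Mrc1 in Model against Sham was -0.06 to 0.79 when 1 library was left out, and in rt-PA+Acu against Sham it was 0.13 with the replicate block and -0.56 to 0.29 when 1 library was left out. The causes were not tested.

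Replicate numbers shared by the groups did not pair the libraries, as correlations of deviations ranged from -0.25 to 0.15. With the number as a block, 6, 0, 8, 9, 5 and 3 genes were called in Model against Sham, rt-PA against Model, rt-PA+Acu against rt-PA, rt-PA against Sham, rt-PA+Acu against Model and rt-PA+Acu against Sham, the one lost in rt-PA+Acu against rt-PA being Gpnmb (-1.47, adjusted p = 0.0535). At this depth, Trem1, Clec7a and Nos2 in Sham and rt-PA+Acu rest on few counts, and 3 genes (Clec7a, Trem1 and Nos2) could not be tested between them.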
